A study of Homo sapiens with 2 samples.

Results

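The genes described here are the glycosyltransferases that build O-glycans, N-glycans, their sialylated and fucosylated ends, heparan sulphate and hyaluronan, together with the mucin proteins that carry many of these sugars. They were chosen by symbol: a probe set belonged when its 1 gene symbol in the platform annotation began with GALNT, ST3GAL, ST6GAL, ST8SIA, B3GNT, B3GALT, B4GALT, FUT, MGAT, GCNT, C1GALT1, EXT, EXTL, HAS or MUC and, for all but ST6GAL and C1GALT1, went on with a number. This rule found 103 of the 17687 named genes, each with 1 of the 21448 probe sets. Mucins were 15 of them, and the other 88 were enzymes or enzyme helpers, with the pseudogene MGAT4EP counted among these. The study used 2 Affymetrix arrays to measure the RNA of MKN1 cells, a line established from a human gastric cancer. One array came from cells made to overexpress wild-type RHOA, a small GTPase of the actin cytoskeleton, and the other from cells made to overexpress RHOA Y42C, a tyrosine-to-cysteine substitution. Both lines carry a pBABE vector with RHOA and went through puromycin selection, both grew in RPMI with serum, and cells without a RHOA vector were not analysed here. There was 1 array per line, so no difference below has a replicate error, an interval or a p-value. The values compare these 2 lines only, and whether a line is a clone or a pool is not given in the sources used here.

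Many glycans are built in the Golgi by enzymes that mostly add 1 sugar in 1 linkage. Mucin-type O-glycans start when a GALNT enzyme puts N-acetylgalactosamine (GalNAc) on serine or threonine, and they are then extended to core structures, while N-glycans arrive preassembled and are trimmed and branched by MGAT enzymes. Galactose and N-acetylglucosamine (GlcNAc) units lengthen the chains, and fucose and sialic acid cap them. In the stomach, gel-forming mucins cover the surface, and altered O-glycans, core fucosylation and sialylated antigens are long-studied features of gastric cancer.

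Signals are given on the log2 scale of the deposited values, wild-type first and Y42C second, and differences are Y42C minus wild-type; the log base is taken from the range of values, so folds rest on it. An expression minimum was set for each array at the 95th percentile of its 348 olfactory receptor genes (5.17 on the wild-type and 5.14 on the Y42C array), and a gene had to reach it on either array. Where only 1 array did, the text gives the smallest fold the minimum allows ("at least"), although the gene is counted by its deposited values. Of the 103 genes, 56 (54.4%) passed, against 66.7% of all 17687 named genes, and 53 of the 56 passed on both arrays. The other 47 lay between 2.58 and 5.10 on both arrays. RHOA itself read 16.47 and 16.30, which does not check the labels because both lines carry a RHOA vector. Of 10 epithelial markers, 8 were above the minimum, among them KRT8 (17.96 and 17.94) and EPCAM (13.30 and 13.53), while CDH1, the E-cadherin gene, was not (3.92 and 3.86). The claudin gene CLDN7 was the 1 epithelial marker past 2-fold (10.61 and 9.31, 2.46-fold lower), and ELF3 and CLDN4 differed by -0.71 and 0.69. Of 9 gastric markers named here 3 passed, of which ANXA10 was higher in Y42C (3.78 and 5.55, at least 1.3-fold), and the mucous cell genes TFF1 (4.45 and 4.07), TFF2 (4.47 and 4.79) and GKN1 (3.74 and 3.81) did not. Of 6 squamous markers named here 5 passed, and SERPINB3, a serpin of squamous epithelium, was 12.8-fold lower in Y42C (11.76 and 8.08). The other squamous markers that passed were under 2-fold apart and lay on both sides. KRT5 and KRT13 differed by -0.66 and -0.51, and KRT14 and DSG3 by 0.20 and 0.58. Of 8 blood cell markers, the red cell gene HBB among them, 5 passed, and of 7 endothelial and stromal markers 2. CD14 was 3.43-fold lower in Y42C (7.45 and 5.67). HBB (5.83 and 4.92), PTPRC (4.61 and 5.39) and CD3E (4.70 and 5.67) passed on only 1 array. The part of such markers in the differences below was not tested.

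At least 2-fold apart were 10 of the 56 genes. B3GNT7, EXTL3, FUT8, ST6GALNAC1 and MGAT4B were higher in the Y42C array, and MUC12, ST3GAL6, GCNT1, GALNT9 and GALNT12 were lower. The 5 higher genes are 8.93% of the 56, beside 7.46% of all 11802 genes that passed the minimum. The 5 lower genes are 8.93% as well, beside 9.8% of all genes. Both shares lie near those of all genes, as does the median difference (-0.11, beside -0.07 for all genes), so the counts say nothing particular about this list. The largest difference belonged to MUC12, the only member past 3-fold. Another 12 members were between 1.5-fold and 2-fold apart.

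**Figure D1:**
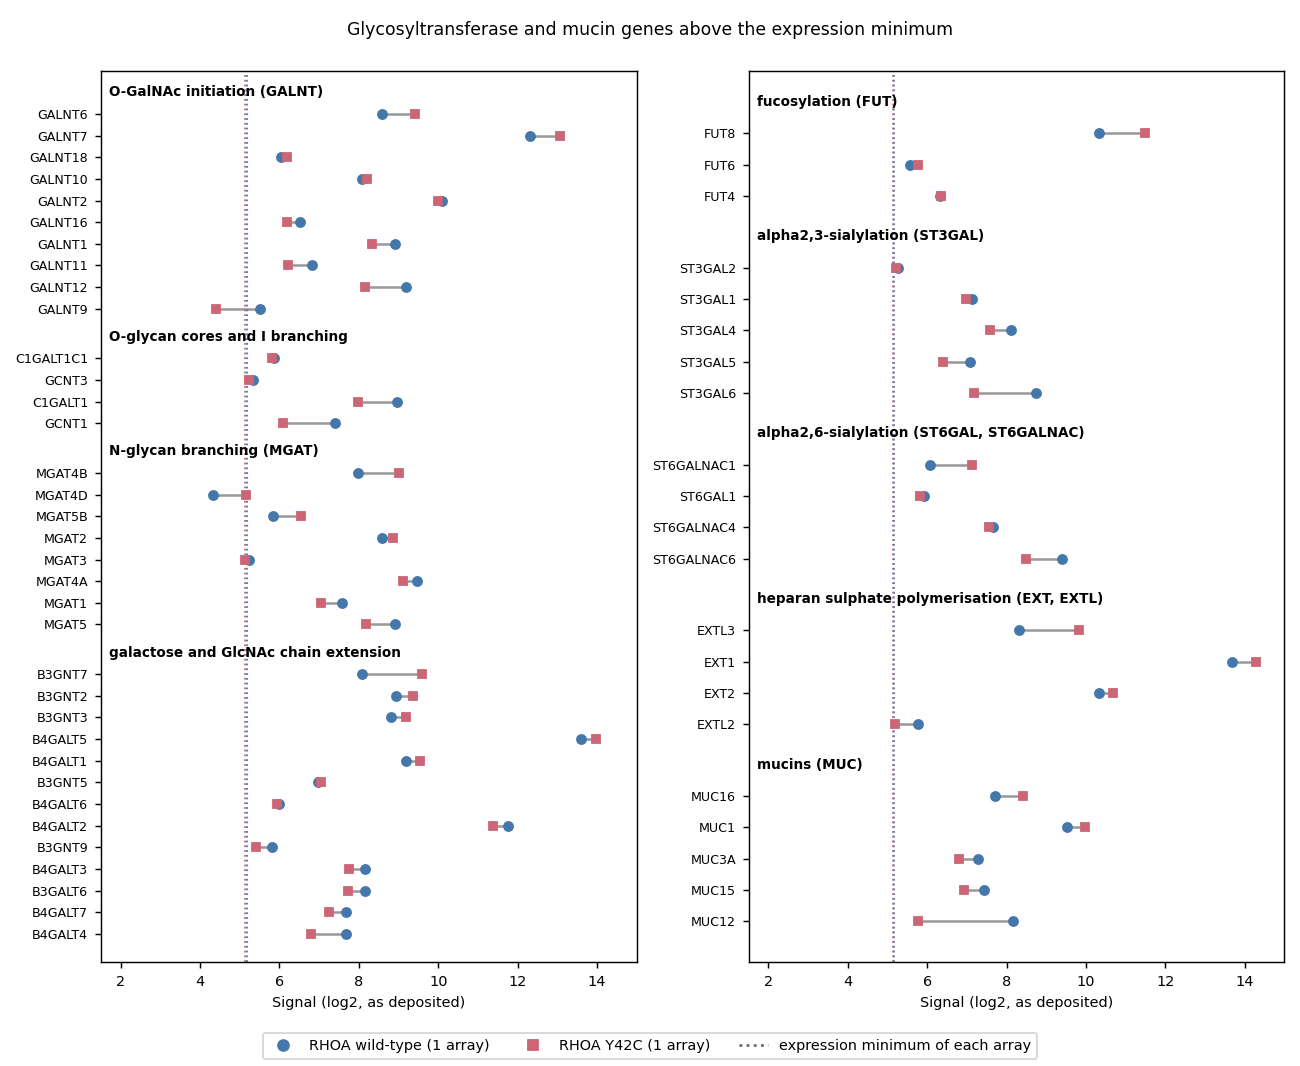
Signal of the 56 genes above the expression minimum on the wild-type (circle) and Y42C (square) array, on the log2 scale as deposited, grouped by linkage type; dotted lines are the minimums of the arrays (5.17 and 5.14). MUC12 has the widest gap (8.16 and 5.77), and GALNT9, MGAT3 and MGAT4D reach the minimum on 1 array only.

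The upstream regions of 3 members at least 2-fold apart on both arrays that have 1 start site in the RefSeq promoter table (assembly GRCh38.p14) are shown. The chromosome that carries EXTL3 was left out of this choice. The 3 regions differ in kind: MUC12, the member with the largest difference, has a region with few CpG pairs, and B3GNT7 and GALNT12, which lay on opposite sides, both have CpG-rich ones. Each run gives the 250 bases before the annotated start, 5′ to 3′. Capitals mark matches on either strand to 5 motifs: the GC box (GGGCGG), the TATA box (TATAAA), the TEAD motif (GGAATG), the AP-1 motif (TGANTCA) and the CArG box of SRF.
MUC12: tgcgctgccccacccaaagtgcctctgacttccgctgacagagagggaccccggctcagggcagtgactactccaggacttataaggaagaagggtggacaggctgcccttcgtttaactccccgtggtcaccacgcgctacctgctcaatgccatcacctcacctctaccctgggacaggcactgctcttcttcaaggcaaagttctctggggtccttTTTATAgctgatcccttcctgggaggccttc
B3GNT7: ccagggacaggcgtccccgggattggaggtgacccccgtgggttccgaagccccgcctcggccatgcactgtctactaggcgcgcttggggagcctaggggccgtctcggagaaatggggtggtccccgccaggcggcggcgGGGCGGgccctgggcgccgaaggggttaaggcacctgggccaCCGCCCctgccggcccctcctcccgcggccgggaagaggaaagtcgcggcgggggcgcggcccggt
GALNT12: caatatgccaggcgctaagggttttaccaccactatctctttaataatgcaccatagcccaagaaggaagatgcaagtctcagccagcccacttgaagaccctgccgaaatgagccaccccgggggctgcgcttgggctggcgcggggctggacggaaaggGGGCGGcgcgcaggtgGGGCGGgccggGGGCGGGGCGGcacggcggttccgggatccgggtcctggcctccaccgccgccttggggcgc
The MUC12 stretch (GRCh38.p14 chr7:100969315-100969564, plus strand) is 57.6% G and C with 7 CpG pairs, and its single match reads TTTATA, the TATA letters on the other strand, starting 31 bases before the start site. The B3GNT7 stretch (chr2:231395460-231395709, plus strand) is 75.6% G and C with 28 CpG pairs and holds 2 GC boxes. The GALNT12 stretch (chr9:98807420-98807669, plus strand) is 67.2% G and C with 21 CpG pairs and holds 4 GC boxes, the last pair of which share a base. None of the 3 stretches holds the letters of the TEAD, AP-1 or CArG motif, which says nothing about these factors outside the window.

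The same table lists 78 promoters for 44 of the 56 members above the minimum. Their upstream stretches had a median of 65.6% G and C and 18 CpG pairs, beside 64.4% and 20 in the 14092 promoters of all genes above the minimum and 58% and 11 in all 35116 promoters of that length. A GC box was present in 64.1% of the member promoters, in 62.2% of those of all genes above the minimum and in 42.6% of all promoters. For the TATA box the shares in that order were 6.41%, 6.48% and 10.7%, and for the AP-1 motif 5.13%, 4.61% and 6.57%. The TEAD motif was found in 12.8%, 9.64% and 11.9%, and the CArG box in 0 of 78, in 1.08% and in 1.16%. The member promoters thus resembled those of other measured genes in base composition. Several promoters can belong to 1 gene, so these shares are not independent.

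Initiation of mucin-type O-glycans had 10 of 17 GALNT genes above the minimum. At least 2-fold lower in Y42C were 2 of the 10 (20%, beside 9.8% of all genes), and none was that much higher, where 7.46% of all genes were. GALNT12 read 9.20 and 8.15, 2.07-fold lower, just past the threshold. GALNT9 read 5.51 and 4.40, and since the Y42C value is below its minimum, it was at least 1.3-fold lower. On the other side stood GALNT6 (8.58 and 9.41, a difference of 0.83) and GALNT7 (12.30 and 13.08, 0.78), of which GALNT7 prefers peptides that already carry GalNAc. GALNT1 (8.92 and 8.34) and GALNT2 (10.10 and 9.99) are the widely expressed initiators. GALNT10 (8.08 and 8.21), GALNT11 (6.81 and 6.22), GALNT16 (6.51 and 6.19) and GALNT18 (6.05 and 6.19) differed by 0.59 or less in either direction. The family's median was -0.21, with 4 members higher and 6 lower.

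Of the 7 genes that turn the first GalNAc into core structures or make the I branch, 4 were above the minimum. GCNT1 was the 1 at least 2-fold lower (25%, beside 9.8% of all genes), and none was that much higher. C1GALT1, which adds galactose to make core 1, read 8.97 and 7.98, a difference of -0.99 that falls just short of 2-fold. Its chaperone C1GALT1C1 differed by -0.05 (5.87 and 5.82). GCNT1, which branches core 1 into core 2, was 2.48-fold lower (7.41 and 6.10), while GCNT3, which can make core 2 and core 4, lay close to the minimum on both arrays (5.33 and 5.23). All 4 had a difference below 0, as did 54.2% of all genes, but for C1GALT1C1 and GCNT3 it was 0.10 or less in size, and C1GALT1C1 moved to 0.01 when each array was centred on its median. GCNT2, which makes the branched I antigen (5.01 and 4.87), B3GNT6, the core 3 enzyme (4.44 and 4.74), and C1GALT1C1L (4.68 and 4.25) were below the minimum.

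Of 15 mucin genes 5 were above the minimum, and these were MUC1, MUC3A, MUC12, MUC15 and MUC16, whose products span the membrane. Other membrane mucins and the gel-forming mucins named here were below it. At least 2-fold lower was 1 of the 5 (20%, beside 9.8% of all genes), and none was that much higher. MUC12 read 8.16 and 5.77, 5.24-fold lower in Y42C, and 0.254% of all genes above the minimum were at least as far in that direction. MUC3A (7.27 and 6.80) and MUC15 (7.44 and 6.92) differed by -0.47 and -0.52. MUC16, the carrier of the CA125 antigen, read 7.70 and 8.41 (0.71), and MUC1 9.51 and 9.97 (0.46). The mucins thus lay on both sides of 0, with 2 higher, 3 lower and a median of -0.47. The gel-forming MUC2 (3.55 and 3.74), MUC5AC (3.20 and 3.25), MUC5B (5.04 and 4.87), MUC6 (3.88 and 4.06) and MUC19 (4.02 and 4.26) were below the minimum on both arrays, as were the salivary MUC7 (3.31 and 3.14) and the membrane mucins MUC13 (3.43 and 3.95), MUC17 (3.59 and 3.64), MUC21 (3.66 and 4.03) and MUC22 (3.74 and 3.65).

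MUC12 stands between MUC3A and MUC17 in the gene order of GRCh38.p14. Of its 5 nearest protein-coding genes on each side, 8 were named here besides MUC12, and of these 5 were above the minimum. SRRT was 2.17-fold higher (11.09 and 12.21), and ACHE (-0.11), MUC3A (-0.47), AP1S1 (-0.44) and TRIM56 (-0.76) were less than 2-fold apart. MUC12 was therefore the only 1 of the measured genes in this stretch at least 2-fold lower. Mucin repeats resemble each other, and the probe sequences were not used here, so shared probes between MUC12 and MUC3A were not tested.

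N-glycan branching enzymes differed in both directions. Of 8 measured genes 1 was at least 2-fold higher (12.5%, beside 7.46% of all genes), and none was that much lower, where 9.8% were. MGAT4B and MGAT4A make the same GlcNAc branch, and they lay apart: MGAT4B was 2.06-fold higher (7.97 and 9.01), and MGAT4A differed by -0.37 (9.47 and 9.10). MGAT5, which adds the branch long tied to invasive growth, read 8.91 and 8.18 (-0.73), and its relative MGAT5B, which acts on O-mannose glycans, read 5.83 and 6.55 (0.72). MGAT1, which opens the complex pathway, differed by -0.53 (7.57 and 7.04), and MGAT2, the next step, by 0.27 (8.58 and 8.85). MGAT3, the bisecting enzyme, lay at the minimum (5.24 and 5.12). MGAT4D reached it on the Y42C array only (4.32 and 5.16), which gives no fold. MGAT4C (4.95 and 4.89) and the pseudogene MGAT4EP (4.65 and 4.55) were below it. Of the 8 measured genes 4 were higher and 4 lower, with a median of 0.08.

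Galactose and GlcNAc transferases that lengthen chains had 13 of 19 genes above the minimum. None was at least 2-fold lower, where 9.8% of all genes were, and 1 was that much higher (7.69%, beside 7.46%). B3GNT7, which extends keratan sulphate and lactosamine chains, was 2.87-fold higher (8.08 and 9.60), and 2.52% of all genes were at least as far in that direction. The other B3GNT genes were closer: B3GNT2, a main polylactosamine enzyme, differed by 0.44 (8.93 and 9.37), B3GNT3 by 0.38 (8.81 and 9.19), B3GNT5, which starts lacto-series glycolipids, by 0.09 (6.96 and 7.05) and B3GNT9 by -0.38 (5.80 and 5.42). B4GALT1, the common lactosamine galactosyltransferase, read 9.19 and 9.53, and B4GALT5, a lactosylceramide synthase, 13.60 and 13.97. Lower by less than 2-fold were B4GALT2 (11.77 and 11.39), B4GALT3 (8.15 and 7.75) and B4GALT4 (7.68 and 6.79), the last with a difference of -0.89. B4GALT6, the other lactosylceramide synthase, differed by -0.04 (5.98 and 5.94), a sign that turned under centring and under removal of the trend on level.

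A pair in this group builds the tetrasaccharide that joins glycosaminoglycans to proteins. B4GALT7 (7.68 and 7.25) and B3GALT6 (8.15 and 7.72), which add its galactoses, both differed by -0.43. The median over the 13 was -0.04. B3GALT1 (3.91 and 4.23), B3GALT2 (3.82 and 4.69), B3GALT4 (4.28 and 4.08), B3GALT5 (3.95 and 3.83), B3GNT4 (4.08 and 3.77) and B3GNT8 (3.81 and 4.11) were below the minimum.

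Fucosyltransferases had 3 of 9 genes above the minimum. Of these 1 was at least 2-fold higher (33.3%, beside 7.46% of all genes), and none was that much lower, where 9.8% were. FUT8, the enzyme of core fucosylation of N-glycans, was 2.2-fold higher in Y42C (10.34 and 11.48). FUT4, which makes Lewis x structures, differed by 0.03 (6.31 and 6.34), and FUT6, an enzyme of the Lewis group, by 0.20 (5.56 and 5.76). The blood group H enzymes FUT1 (4.14 and 4.52) and FUT2 (4.20 and 3.38), and the Lewis enzyme FUT3 (3.43 and 4.0), were below the minimum, as were FUT5 (4.72 and 4.52), FUT7 (3.45 and 3.51) and FUT9 (3.56 and 2.97). FUT3, FUT5 and FUT6 are near-identical genes that may share probes.

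**Figure D2:**
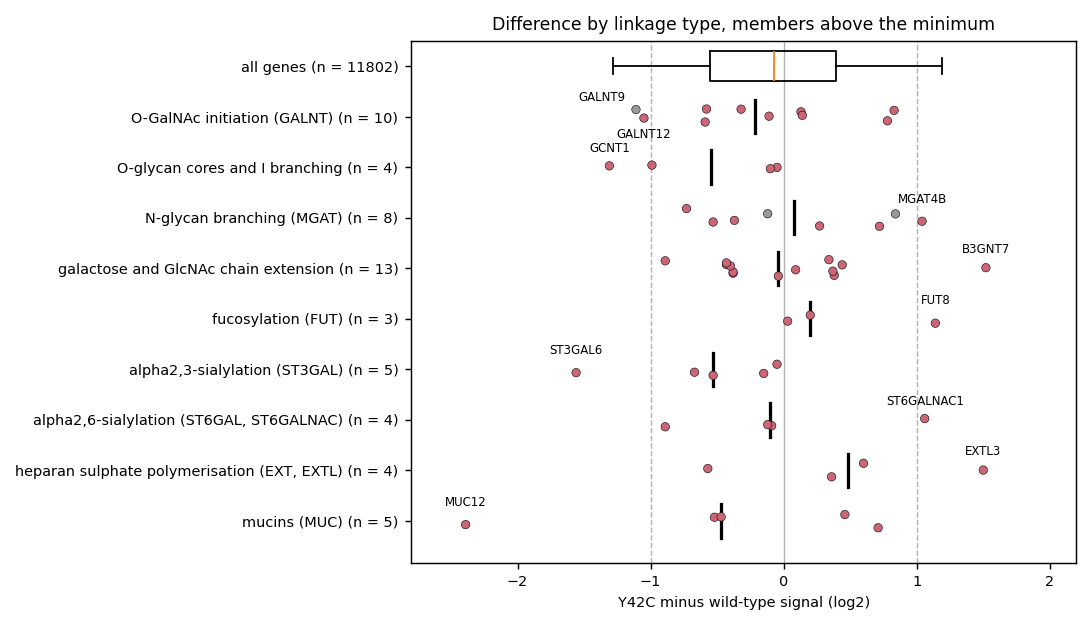
Difference in log2 signal, Y42C minus wild-type, for each gene above the minimum by linkage type, with the median of each type as a black bar; grey points are below the minimum on 1 array, and the box of all 11802 genes spans its quartiles with whiskers from the 5th to the 95th percentile. Dashed lines mark 2-fold, and the 10 genes past them are named, from MUC12 at -2.39 to B3GNT7 at 1.52.

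The alpha2,3-sialyltransferases, which cap galactose, had 5 of 5 genes above the minimum. At least 2-fold lower in Y42C was 1 of them (20%, beside 9.8% of all genes), and none was that much higher. All 5 differences were below 0, as were 54.2% over all genes, although that of ST3GAL2 (5.27 and 5.22) moved to 0.01 when each array was centred on its median. ST3GAL6, which helps make sialyl Lewis x, was 2.95-fold lower (8.75 and 7.19), and 2.2% of all genes were at least as far in that direction. ST3GAL5, the GM3 ganglioside synthase, differed by -0.67 (7.08 and 6.41), ST3GAL4 by -0.53 (8.12 and 7.59) and ST3GAL1, which caps core 1, by -0.15 (7.12 and 6.97). The median was -0.53.

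Of the alpha2,6-sialyltransferases, 4 of 8 were above the minimum and they diverged. Among the 4, 1 was at least 2-fold higher (25%, beside 7.46% of all genes), and none was that much lower, where 9.8% were. ST6GALNAC1, which makes the sialyl-Tn antigen by capping the first GalNAc, was 2.08-fold higher (6.07 and 7.13). ST6GALNAC6, which makes disialylated structures, differed by -0.89 (9.39 and 8.50). ST6GALNAC4 differed by -0.12 (7.67 and 7.55), moving to 0.01 once the trend on level was removed, and ST6GAL1, the N-glycan alpha2,6 enzyme, by -0.09 (5.92 and 5.83). ST6GALNAC1 and the core 1 enzyme C1GALT1 can both act on the first GalNAc, and they differed by 1.06 and -0.99, the latter under 2-fold. Whether these 2 differences are linked was not tested.

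ST6GAL2 (3.76 and 3.92), ST6GALNAC2 (4.88 and 5.10), ST6GALNAC3 (3.53 and 3.91) and ST6GALNAC5 (4.49 and 4.90) were below the minimum. So were the 6 ST8SIA genes, which build disialic and polysialic acid: ST8SIA1, the GD3 synthase (3.39 and 3.40), ST8SIA2 (3.68 and 4.58), ST8SIA3 (2.90 and 3.39), ST8SIA4 (4.02 and 3.97), ST8SIA5 (4.29 and 4.82) and ST8SIA6 (4.91 and 4.58). Taken as 1 group, put together after the values were seen, 8 of 9 measured sialyltransferases were lower, where 54.2% of all genes were; the count was 7 of 9 with the arrays centred or the trend on level removed, and 10 of 19 with no minimum.

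Heparan sulphate is a sulphated chain on cell-surface proteoglycans that binds growth factors. EXTL3, which adds the first GlcNAc that commits a chain to heparan sulphate, was 2.83-fold higher in Y42C (8.32 and 9.82). EXT1 (13.68 and 14.28) and EXT2 (10.32 and 10.68), which together form the polymerase, differed by 0.60 and 0.36. EXTL2, which can stop a chain, differed the other way (5.76 and 5.19, -0.57). EXTL3 was thus the 1 of 4 measured genes at least 2-fold higher (25%, beside 7.46% of all genes), and none was that much lower, where 9.8% were. The 4 measured genes had a median of 0.48, with 3 higher and 1 lower under each of the scaling alternatives. EXTL1 was below the minimum (2.87 and 3.04). Both hyaluronan synthases named here were below it too, HAS2 at 2.58 and 3.76 and HAS3 at 3.10 and 3.39. The HAS2 difference of 1.18 is therefore not counted, and neither is that of GALNT3 (5.05 and 3.62). GALNT5 (3.65 and 4.39), GALNT8 (4.33 and 4.12), GALNT13 (3.77 and 4.59), GALNT14 (2.60 and 2.95), GALNT15 (4.58 and 4.91) and GALNT17 (3.97 and 3.26) complete the genes below the minimum.

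Other genes of the same pathways, taken as lists, were set beside the members. Enzymes that make nucleotide sugars, the donors of every transfer above, had 4 of 21 measured genes at least 2-fold lower (19%, beside 9.8% of all genes) and 1 higher (4.76%, beside 7.46%). Differences below 0 were found for 14 of the 21 (66.7%, beside 54.2%), and the median was -0.38. The lower genes were GALK2 (3.63-fold), UGDH, which makes the UDP-glucuronic acid of glycosaminoglycans (12.62 and 10.92, 3.25-fold), PMM1 (2.31-fold) and GALK1 (2.19-fold), and the higher 1 was GMDS, the first enzyme of GDP-fucose synthesis (5.98 and 6.99, 2.01-fold). GNE and CMAS, the enzymes at the start and the end of CMP-sialic acid synthesis, differed by -0.45 and 0.02. The SLC35 family holds Golgi transporters of these donors, although not every listed member is known to carry one. Of the 13 listed genes measured, 0 were past 2-fold, with SLC35A1, the CMP-sialic acid transporter, at -0.54, and SLC35A4 at 0.94.

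Trimming enzymes of N-glycans had a median of 0.18. None was at least 2-fold lower, where 9.8% of all genes were, and 2 of 14 were that much higher (14.3%, beside 7.46%). These were MAN2A2 (6.25 and 8.35, 4.29-fold) and MAN2A1 (8.12 and 9.55, 2.69-fold), the Golgi mannosidases that act between MGAT1 and MGAT2. Dolichol-linked precursor assembly had 3 of 20 genes at least 2-fold higher (15%, beside 7.46% of all genes) and 2 lower (10%, beside 9.8%). The higher genes were DPM3 (at least 2.36-fold), DOLK (2.46-fold) and ALG12 (2.06-fold). The lower genes were ALG10 (3.16-fold) and ALG14 (at the threshold, 9.09 and 8.09). Of 11 oligosaccharyltransferase subunits KRTCAP2 was the 1 past 2-fold (12.52 and 11.36, 2.23-fold lower), which is 9.09% beside 9.8% of all genes. The catalytic STT3A and STT3B differed by 0.42 and 0.18.

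Chondroitin and dermatan sulphate synthesis, which shares its linker with heparan sulphate, had 4 of 11 genes past 2-fold, all on the higher side, which is 36.4% beside 7.46% of all genes. UST, a uronic acid sulphotransferase, read 5.90 and 7.45 (2.93-fold), CHPF, a polymerising factor, 10.11 and 11.43 (2.5-fold), and the sulphotransferases CHST11 (12.51 and 13.82) and CHST3 (6.72 and 7.87) were 2.48-fold and 2.22-fold higher. With 11 genes and 1 array per line this share is a description. The list of heparan sulphate linker and modification enzymes had 1 of 15 higher (6.67%, beside 7.46% of all genes) and 1 lower (6.67%, beside 9.8%). The higher gene was HS3ST4 (4.65 and 5.78, at least 1.52-fold). The lower gene was XYLT1, which starts the linker (6.75 and 5.36, 2.62-fold), and the median of the list was 0.33.

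Of 5 measured hyaluronan receptors and degrading enzymes, 2 were counted as higher (40%, beside 7.46% of all genes) and 1 as lower (20%, beside 9.8%). CEMIP2 was 2.85-fold and CEMIP at least 1.34-fold higher. HMMR, also a mitotic spindle protein, was 2.39-fold lower, and CD44 differed by 0.36 (14.35 and 14.71). A list of other O-glycan transferases also held enzymes of other kinds, such as A4GALT, OGA and the kinase POMK. Of its 18 measured genes, 2 were past 2-fold in each direction (11.1%, beside 7.46% of all genes higher and 9.8% lower). These 4 belong to O-mannose glycans: LARGE2 (2.45-fold) and POMGNT1 (2.06-fold) were higher, and POMGNT2 (2.46-fold) and POMK (10.48 and 9.48, at the threshold) lower. Galectins, which bind galactose-ended glycans, were listed together with LGALS3BP, which is not a galectin. Among the 9 measured genes of this list, LGALS3 (13.04 and 11.66, 2.6-fold) and LGALS8 (2.36-fold) were lower, and LGALS7 (at least 1.89-fold) and LGALS9B (at least 1.11-fold) higher. That is 22.2% in each direction, beside 9.8% of all genes lower and 7.46% higher. Sialidases and sialate modifying enzymes (3 measured), glycan sulphotransferases (8) and genes of mucous secretory cells (6 of 24 above the minimum) had 0 genes past 2-fold. The 6 of the last list are transcription factors. KLF4, CDX2, SOX2 and GATA6 differed by 0.71, 0.63, 0.22 and 0.10, and FOXA1 and GATA4 by -0.41 and -0.08.

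**Figure D3:**
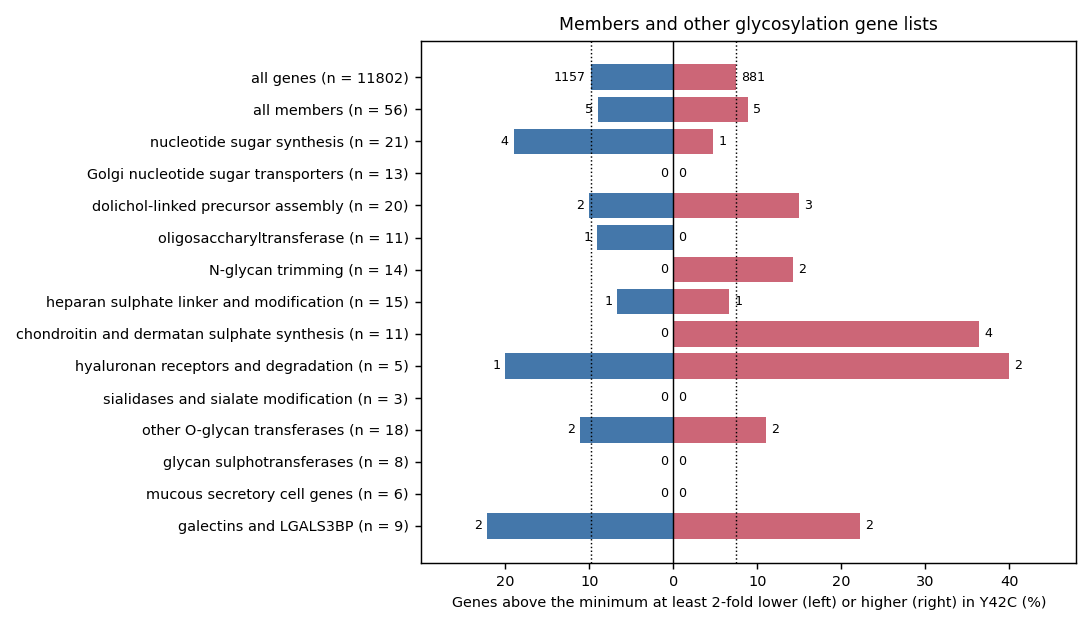
Share of the genes above the minimum that were at least 2-fold lower (left) or higher (right) in Y42C, in percent, for all genes, the 56 members and 13 other lists; figures at the bars are numbers of genes and dotted lines the shares of all genes (9.8% and 7.46%). The members lie close to both lines (8.93% each way), and chondroitin and dermatan sulphate synthesis has 4 of 11 genes on the higher side and 0 on the lower.

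The 10 members past 2-fold were recomputed under other processing settings. B3GNT7 stayed between 1.47 and 1.64, EXTL3 between 1.45 and 1.62, FUT8 between 1.13 and 1.24, GCNT1 between -1.31 and -1.14, ST3GAL6 between -1.56 and -1.43 and MUC12 between -2.39 and -2.10. GALNT12 ranged from -1.05 to -0.93 and fell short of 2-fold under the 3 scaling alternatives. GALNT9 ranged from -1.19 to -0.37. It fell short when a constant of 16 was added to the linear signal (-0.73) and when values below the minimum were set to it (-0.37). It did not reach a minimum set at the 99th percentile or at the array median. MGAT4B (0.99 to 1.17) and ST6GALNAC1 (0.91 to 1.16) fell short with the constant of 16 as well. C1GALT1, just short of 2-fold as deposited, ranged from -0.99 to -0.86.

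**Figure D4:**
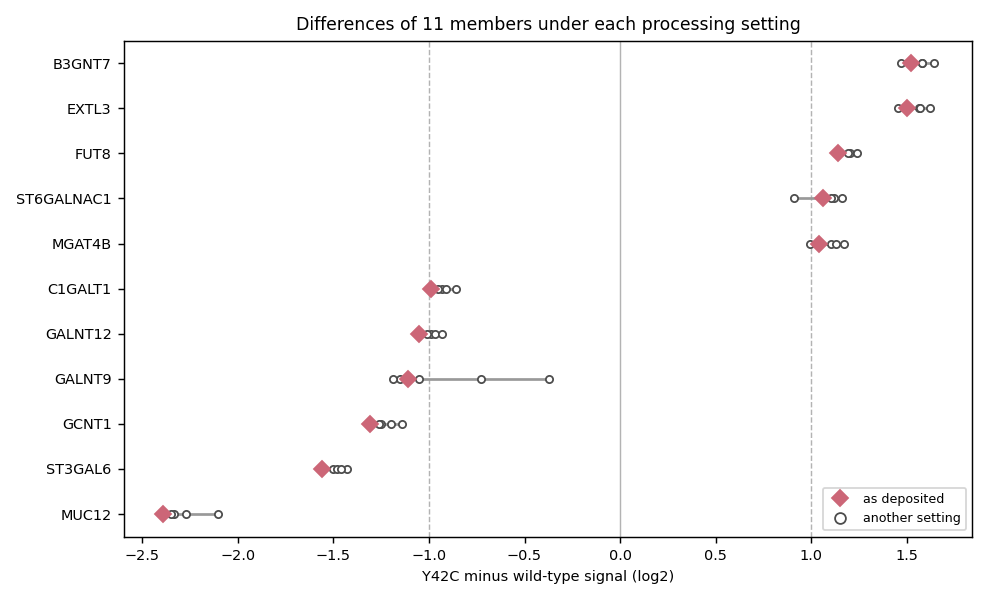
Difference in log2 signal, Y42C minus wild-type, of the 10 members past 2-fold and of C1GALT1, as deposited (diamond) and under each other setting (open circle); dashed lines mark 2-fold. MUC12, ST3GAL6, GCNT1, FUT8, EXTL3 and B3GNT7 stay beyond the lines in every setting that measured them, and GALNT9 has the widest range.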

How the data were processed

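Total RNA of 2 MKN1 lines was labelled as biotinylated cRNA for Affymetrix arrays, per the labels' protocols, with 1 array per line. The deposited table holds 1 value per probe set and array, between 2.23 and 18.16, taken as log2 signal from this range. The authors used Affymetrix Expression Console, per the submitters' processing notes. Version, summary method and normalization: not given in the sources used here. Array medians were 6.42 and 6.36, and values were used as deposited. Precision is limited by the number of arrays.

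The annotation of the platform gave 1 symbol for 17709 probe sets. Probe sets of 20 genes were averaged, none of them members. All 103 members matched the gene table by Entrez identifier. Counts past 2-fold use deposited values; where 1 array is below its minimum, the fold is a lower bound against that minimum. Linkage types and lists were grouped by function, and members, lists and settings were chosen with earlier results of these data known. Every member could be named, and from other lists up to 4 genes past 2-fold and further genes, some of the latter chosen after their values were seen. The RefSeq promoter table (GRCh38.p14) was cut to the 250 bases before each start. No genome build is named in the files, so no coordinates are given for probe sets. Tools were matplotlib 3.10.9, statsmodels 0.14.6, NumPy 2.4.6 and pandas 2.3.3, run under Python 3.11.15.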

Additional observations from a re-analysis of the deposited data

How the results depend on the processing

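No paired analysis was possible because each line has 1 array, and leaving out a replicate was not possible either. The counts of 5 higher and 5 lower members became 11 and 11 at a 1.5-fold threshold and 0 and 1 at a 3-fold threshold. Adding a constant of 16 to the linear signal left 3 higher and 4 lower. The other settings gave 5 or 6 higher and 4 to 6 lower. The median difference of the members, -0.11, was -0.04 with each array centred on its median, -0.04 with the trend on level removed and 0.01 with no minimum. It ranged from -0.15 to 0.01, so its sign is not settled. Scaling moved the median of all genes by 0.07 at most. No member past 2-fold changed sign. Of the linkage types, the median stayed negative in every setting that gave one for alpha2,3-sialylation (-0.60 to -0.40), O-GalNAc initiation (-0.21 to -0.11) and O-glycan cores (-0.99 to -0.14). It stayed positive for heparan sulphate polymerisation (0.36 to 0.60) and fucosylation (0.06 to 0.26). Its sign changed for mucins (-0.47 to 0.05), N-glycan branching (-0.08 to 0.14), chain extension (-0.04 to 0.09) and alpha2,6-sialylation (-0.12 to 0.19). Arrays give no read depth, and 47 members could not be compared because both signals lay below the minimum.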
